A study of Homo sapiens with 24 samples.

Results

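Myc peaks that lay in long non-coding RNA (lncRNA) genes and away from protein-coding genes were examined in 2 CUT&Tag libraries of Mia PaCa-2 cells, an established human pancreatic carcinoma line. In CUT&Tag an antibody brings a transposase to its target, and the DNA tagged there is sequenced. A peak was a member where 3 conditions held: its summit lay inside the span of an lncRNA gene, its summit lay inside no protein-coding span, and no part of it came within 1 kb of either end of a protein-coding gene. The rule used positions alone. On chromosomes 1 to 22 and X it took 194 of 3468 Myc peaks in the library without doxycycline (5.59%, 95% interval 4.85 to 6.41) and 325 of 6718 in the library titled day 5 of doxycycline (4.84%, 4.34 to 5.38). Over all contigs the deposited lists held 3559 and 6953 peaks.

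Both libraries came from cells that carry a teton MED30 construct, in which doxycycline turns on extra MED30, a subunit of the Mediator complex. The series asks how extra MED30 bears on Myc. One library had no doxycycline and the other had it until day 5 per its title, while a protocol shared by the samples speaks of 2 days. Whether the cells were 1 clone is not given in the sources used here, and no doxycycline library without the construct was compared, so an effect of doxycycline cannot be told apart from one of MED30. The other 22 of 24 samples, control IgG libraries among them, were not analysed here, and peaks that IgG would also give were not removed. With 1 library per condition there was no replicate check and no test. Each difference below is between these 2 libraries. Intervals are exact binomial for shares and exact Poisson for fragments, at 95%, and they cover counting error only.

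Myc is a transcription factor that binds DNA together with MAX, with a preference for the E-box CACGTG, and it is usually found at active, CpG-rich promoters. lncRNA genes are transcribed by RNA polymerase II into RNAs that code for no protein. Some of them are host genes, whose introns or exons release small nucleolar RNAs (snoRNAs) or microRNAs. Others act as RNAs, or are little studied and carry only a LINC or LOC number. Myc is also known to stimulate RNA polymerase III, which makes tRNAs and other small RNAs.

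The promoter windows of 6 lncRNA genes with a member and a CACGTG are printed here as examples, and a member peak overlaps each of them. Other such windows, those of LINC-PINT and LINC00513 among them, are not printed. They run from 250 bases before to 50 bases after a RefSeq transcript start (GRCh38.p14, which is hg38), 5′ to 3′ on the gene's strand, with the E-box in capitals. Positions of the E-box are those of its 1st base, counted from the start. LINC00863 (chr10:87342486-87342785, plus strand) has it at -87, SNHG30 (chr17:35567864-35568163, plus) at -65, LINC01063 (chr3:196632538-196632837, minus) at -177, LOC105378629 (chr1:32351346-32351645, minus) at -217, NORAD (chr20:36050911-36051210, minus) at -138 and OIP5-AS1 (chr15:41283740-41284039, plus) at -240. A match describes these letters and shows no binding by itself. The distance from the summit to the middle of the E-box was 133.5 and 130.5 bp at LINC00863 without doxycycline and at day 5, 341.5 and 97.5 bp at SNHG30, 620.5 and 394.5 bp at LINC01063 and 326.5 and 308.5 bp at LOC105378629. At day 5 alone it was 290.5 bp at NORAD and 240.5 bp at OIP5-AS1. The summits of LINC01063, LOC105378629 and NORAD, and that of SNHG30 without doxycycline, lay outside the window. A member summit must lie inside a gene span and these E-boxes lie before a start, so the distances are partly set by the rule.
LINC00863: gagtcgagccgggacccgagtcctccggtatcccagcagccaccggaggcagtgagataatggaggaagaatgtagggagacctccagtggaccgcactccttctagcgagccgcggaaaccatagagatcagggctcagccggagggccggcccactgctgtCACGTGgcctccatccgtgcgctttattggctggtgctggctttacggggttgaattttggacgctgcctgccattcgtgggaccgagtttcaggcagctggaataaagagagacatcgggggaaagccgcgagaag
SNHG30: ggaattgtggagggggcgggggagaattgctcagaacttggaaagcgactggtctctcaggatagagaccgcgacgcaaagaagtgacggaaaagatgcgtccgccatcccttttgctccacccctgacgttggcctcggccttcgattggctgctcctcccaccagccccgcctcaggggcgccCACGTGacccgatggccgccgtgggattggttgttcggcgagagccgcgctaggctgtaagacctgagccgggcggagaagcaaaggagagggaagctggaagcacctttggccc
LINC01063: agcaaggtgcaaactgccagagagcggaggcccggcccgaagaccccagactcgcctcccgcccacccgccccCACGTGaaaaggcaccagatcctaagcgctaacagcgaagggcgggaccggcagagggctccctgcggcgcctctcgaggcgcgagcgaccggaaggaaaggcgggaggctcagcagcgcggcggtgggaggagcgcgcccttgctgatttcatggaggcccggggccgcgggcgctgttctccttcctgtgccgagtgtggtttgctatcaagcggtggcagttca
LOC105378629: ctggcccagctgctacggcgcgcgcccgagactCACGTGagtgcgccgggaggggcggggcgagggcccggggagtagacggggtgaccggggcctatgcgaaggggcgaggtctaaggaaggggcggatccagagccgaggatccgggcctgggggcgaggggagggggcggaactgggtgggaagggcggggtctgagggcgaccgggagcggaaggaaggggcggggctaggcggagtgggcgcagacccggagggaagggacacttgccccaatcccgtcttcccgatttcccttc
NORAD: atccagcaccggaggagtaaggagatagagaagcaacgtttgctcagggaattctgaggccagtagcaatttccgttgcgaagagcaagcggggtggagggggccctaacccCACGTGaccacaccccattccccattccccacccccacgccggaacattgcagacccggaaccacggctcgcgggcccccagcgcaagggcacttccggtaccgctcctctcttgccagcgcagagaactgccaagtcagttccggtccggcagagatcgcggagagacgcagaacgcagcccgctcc
OIP5-AS1: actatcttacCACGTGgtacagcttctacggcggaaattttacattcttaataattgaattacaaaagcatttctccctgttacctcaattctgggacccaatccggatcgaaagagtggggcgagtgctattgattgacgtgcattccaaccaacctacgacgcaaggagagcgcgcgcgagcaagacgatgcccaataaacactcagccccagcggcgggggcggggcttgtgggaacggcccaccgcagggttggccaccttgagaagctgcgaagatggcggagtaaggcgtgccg

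The window of LOC124904992 (chr21:8108192-8108491, minus strand) is shown because it stands for 4 genes. The windows of LOC124904989, LOC124904990 and LOC124904991 are identical to it in 300 of 300 bases, so reads inside it cannot be assigned to 1 copy. The peaks of all 4 genes in both libraries overlap the window, but all 8 of their summits lie outside it, where the sequence was not read. It holds no CACGTG and has no capitals.
LOC124904992: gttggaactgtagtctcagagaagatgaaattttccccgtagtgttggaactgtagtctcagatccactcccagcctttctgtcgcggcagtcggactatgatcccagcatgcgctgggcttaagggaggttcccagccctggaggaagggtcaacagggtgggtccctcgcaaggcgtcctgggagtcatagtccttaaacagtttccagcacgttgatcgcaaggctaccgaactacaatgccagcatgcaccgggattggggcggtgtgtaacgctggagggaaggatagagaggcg

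At the summits of the members at these starts the fragments were as follows. LINC00863 had 16 without doxycycline and 26 at day 5, LOC105378629 had 15 and 22, and LINC01063 had 12 and 15. SNHG30 went the other way, with 16 and 9. NORAD, whose RNA binds Pumilio proteins, was listed at day 5 alone with 7 fragments, and OIP5-AS1, a cytoplasmic RNA known for its interaction with miR-7, at day 5 alone with 9. The intervals of every one of these pairs overlap: for LINC00863 they were 9.15 to 26.0 and 17.0 to 38.1. The 4 chromosome 21 genes with identical windows had 18, 16, 24 and 22 fragments without doxycycline (LOC124904989, LOC124904990, LOC124904991 and LOC124904992 in that order) and 33, 33, 27 and 38 at day 5. Each copy had more at day 5, but the identical windows mean that these may not be 4 separate observations.

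The rule keeps members away from coding genes, so their distance to them is given as a description. The gap from a member to the nearest coding gene end had a median of 31.4 kb without doxycycline (quartiles 10.1 and 94.8) and 29.5 kb at day 5 (10.8 and 94.0). It was over 100 kb for 46 and 74 members. Of all summits inside an lncRNA span, 576 and 1057, most lay at a coding gene end (55.6% and 56.6%), and 62 and 134 lay inside a coding gene body. Members were therefore 33.7% and 30.7% of the lncRNA-span summits. Just inside the limit, with values that only describe the edge, lay the peaks in IRAIN, 1025 and 1030 bp from IGF1R with 10 and 11 fragments, in LOC105371709, 1043 bp from NLK with 10, and in LOC124904025, 1032 bp from PPP1R9B with 17 at day 5. Just outside it lay ATF6-DT, 864 bp from ATF6 with 13 fragments, and SNHG25, 875 bp from TEX2 with 13, both without doxycycline. At day 5 these were LOC105379321, 940 bp from EGR3 with 14, and LINC00324, 952 bp from CTC1 with 31.

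Myc summits crowded toward the ends of lncRNA genes. Within 1 kb of an end of the gene that held them lay 87 of 194 members without doxycycline (44.8%, 37.7 to 52.1) and 152 of 325 at day 5 (46.8%, 41.2 to 52.4). Only 6.17% of the bases where a summit could have made a member, 360 Mb in all, lie that near. Within 250 bp the shares were 23.2% and 21.5%, against 1.60% of these eligible bases. The rule used no lncRNA gene end, so this distance was free to vary.

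Listed starts held many of these summits. Where RefSeq lists a transcript start, 63 members without doxycycline (32.5%, 25.9 to 39.6) and 108 at day 5 (33.2%, 28.1 to 38.6) had their summit within 1 kb of one, against 2.13% of eligible bases. The far end of such genes had 9 and 9 members (4.64%, 2.14 to 8.62, and 2.77%, 1.27 to 5.19), against 2.09% of eligible bases, which lies just below the former interval and inside the latter. A summit near both a start and a far end was counted at the start, while the 2.09% keeps such bases. This lowers the far-end share against its background. Another 22 and 44 lay near an end of a gene whose strand is not listed and cannot be given to starts or far ends. The median summit at a start was 203 bp downstream of it without doxycycline (quartiles 95 and 291) and 198 bp at day 5 (73.8 and 368). The condition that a summit lie inside a gene span favours the downstream side, so this sign is partly set by the rule.

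**Figure D1:**
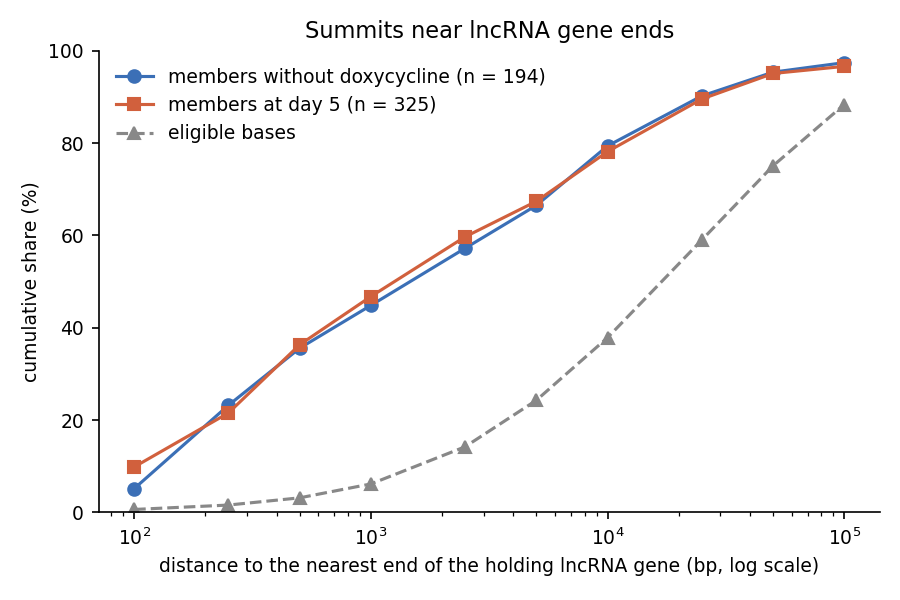
Cumulative share of lncRNA-only Myc summits (vertical axis, percent) by distance to the nearest end of the gene that holds them (horizontal axis, bp, log scale), for members without doxycycline (circles), members at day 5 (squares) and eligible bases (triangles, dashed). At 1 kb the members stand at 44.8% and 46.8% and the eligible bases at 6.17%, and the curves of both libraries run close together.

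Fewer members than eligible bases lay deep in a gene. Over 5 kb from any end of the gene were 65 members without doxycycline (33.5%) and 106 at day 5 (32.6%), against 75.7% of eligible bases. An example is MIR3681HG on chromosome 2, a gene of 571233 bp. Its main summit, with 15 and 10 fragments, lay 259876 bp from the nearest end without doxycycline and 259717 bp at day 5.

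Member peaks were of ordinary strength for these lists. Fragments at a member's summit had a median of 11 in each library, with quartiles of 7 and 15 and a highest value of 70 without doxycycline, and quartiles of 8 and 16 and a highest value of 116 at day 5. Peaks at coding gene ends had medians of 11 and 12, and intergenic peaks 10 and 11. Members at a start had medians of 11 and 11 fragments, and interior ones 10.5 and 11. Of the members, 19 without doxycycline (9.79%) and 28 at day 5 (8.62%) fell in the upper 10% of their list by −log10 q.

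The number of members was 1.68 times as high at day 5 as without doxycycline, in a list 1.94 times as long. This direction rests on the length of the lists. With the day 5 list cut to its 3468 highest peaks by −log10 q, the length of the other list, it held 149 members against 194, a ratio of 0.768. The list without doxycycline was kept whole, its weakest peaks included. Sequencing depth was not given in the sources used here and cannot be told apart from the condition.

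Members without doxycycline recurred at day 5 less often than their list as a whole. A counterpart, meaning any peak of the other list that shares at least 1 bp, was found for 140 of 194 (72.2%, 65.3 to 78.3), against 82.2% of all peaks of that list, and 54 had none, against 17.8%. The interval lies below the share of the list, but not when LOC genes were left out (74.0%, 64.3 to 82.3). Peaks at coding gene ends stood at 87.0% (85.6 to 88.4), while coding gene bodies at 73.1% and intergenic peaks at 72.1% were close to the members. In the other direction 137 of 325 day 5 members had a counterpart (42.2%, 36.7 to 47.7), against 42.4% of that list, and 188 had none, against 57.6%, so this share was near the background. Of the counterparts, 131 of 140 and 131 of 137 were members themselves.

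Strong peaks recurred more often than weak ones, in members as in the lists. Without doxycycline 29 of 29 members with a −log10 q of 10 or more had a counterpart (100%, 88.1 to 100), against 98.6% of all such peaks. Under a −log10 q of 3 this held for 17 of 35 (48.6%), against 56.7%. In the class from 3 to 5 the members stood at 62.9% (49.7 to 74.8) and all peaks at 76.2%, and in the class from 5 to 10 at 80.9% (69.5 to 89.4) and 89.8%. At day 5 the members' shares rose from 11.1% in the weakest class to 86.7% in the strongest, beside 12.1% and 81.6% of all peaks. Members with a counterpart had medians of 12 and 15 fragments, and those without one 7 and 9.

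**Figure D2:**
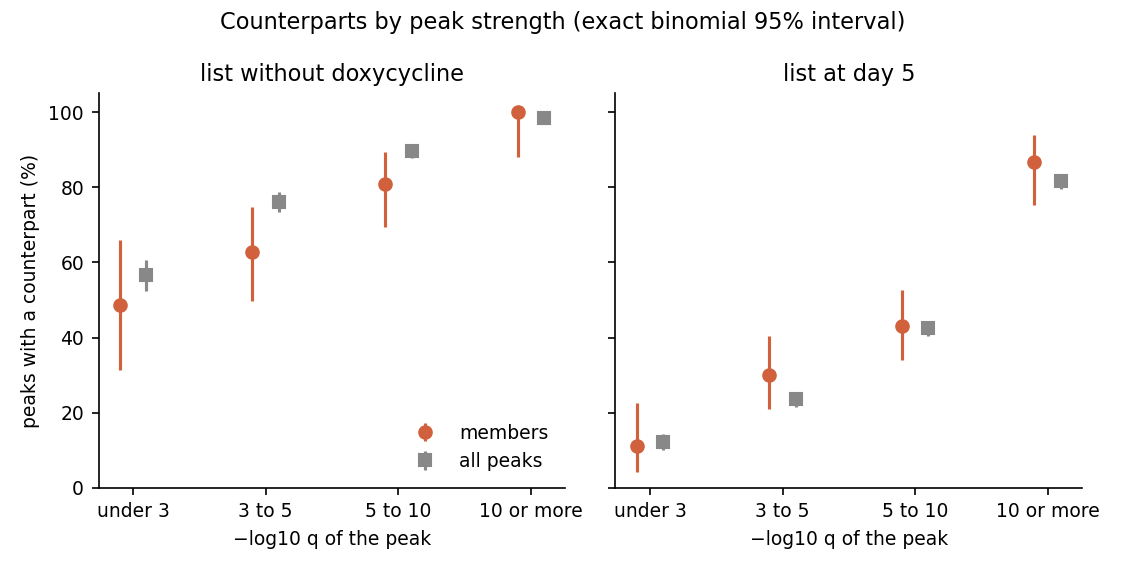
Share of peaks with a counterpart in the other list (vertical axis, percent) by class of −log10 q (horizontal axis), for members (circles) and all peaks (squares), with exact binomial 95% intervals. The left panel is the list without doxycycline and the right panel day 5; shares climb with strength in both, to 100% and 86.7% of members in the strongest class.

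Summits near an lncRNA gene end recurred more often than those further in, by point estimate. Without doxycycline 71 of 87 had a counterpart (81.6%, 71.9 to 89.1) and further in 69 of 107 (64.5%, 54.6 to 73.5). At day 5 the numbers were 72 of 152 (47.4%, 39.2 to 55.6) and 65 of 173 (37.6%, 30.3 to 45.2). The intervals overlap slightly in the former list and widely in the latter. The members near an end also had slightly more fragments, with medians of 11 against 10 without doxycycline and 12 against 11 at day 5.

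Where a day 5 member had a counterpart without doxycycline, day 5 usually had more fragments, as it did elsewhere. These are the member pairs, and in 131 of 137 the counterpart was a member too. Over 137 pairs the ratio of day 5 to no doxycycline had a median of 1.36 (quartiles 1 and 1.67), with 102 pairs higher (74.5%), 9 equal and 26 lower. Over all 2846 pairs the median ratio was 1.43 and 80.5% were higher, and over pairs at coding gene ends 1.44 and 82.5%. The members' median thus lay below that of all pairs. In 6 member pairs (4.38%) the fragment intervals did not overlap and day 5 was higher, against 3.72% of all pairs. In 0 member pairs were they apart with day 5 lower, against 0.105% of all pairs. The 6 were SNHG15, LINC01237, LOC107984935, SPEN-AS1 with 13 and 33 fragments, LOC124905969 with 12 and 37, and GASAL1 with 12 and 41. All 6 day 5 summits lay within 1 kb of an lncRNA gene end, as did 72 of all 137 member pairs. SPEN-AS1, LOC124905969 and GASAL1 were singled out after their values were seen.

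**Figure D3:**
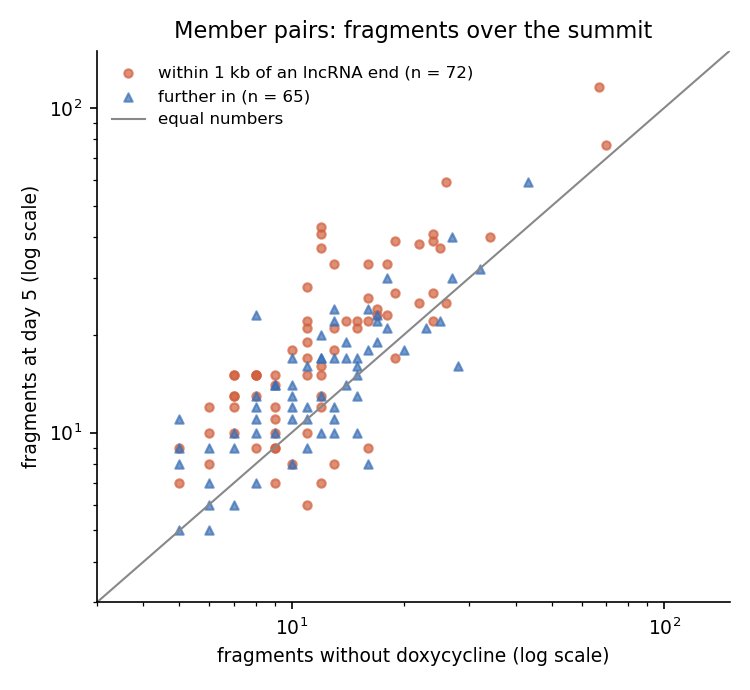
Fragments over the summit of 137 member pairs, without doxycycline (horizontal axis, log scale) and at day 5 (vertical axis, log scale), with summits within 1 kb of an lncRNA gene end as circles, those further in as triangles and a line of equal numbers. 102 of the 137 points lie above the line, and the topmost is SNHG15 with 67 and 116.

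The strongest members were in snoRNA host and little-studied genes. Genes in both lists were named by their day 5 rank, a choice that favours genes higher at day 5. SNHG15 (chr7:44983023-44986696), a short-lived RNA that hosts a snoRNA, had 67 fragments without doxycycline (51.9 to 85.1) and 116 at day 5 (95.9 to 139). Its peaks were at chr7:44986196-44986998 and chr7:44986074-44987049, near an end of the gene, and stood 21st and 6th of all peaks of their lists. LINC02021 (chr3:130111707-130120569) had 70 and 77, with intervals of 54.6 to 88.4 and 60.8 to 96.2, and ranked 14th and 28th. The intervals of SNHG15 did not overlap between the libraries, and those of LINC02021 did.

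LINC01237 on chromosome 2 had 26 fragments (17.0 to 38.1) and 59 (44.9 to 76.1) at its start. LOC107984935 on chromosome 1 had 12 (6.20 to 20.96) and 43 (31.1 to 57.9). LINC02916 on chromosome 10 had 24 and 41, and SNHG26 on chromosome 7, another snoRNA host, 24 and 39 at its start. In the latter 2 the intervals overlap. LOC102724701 on chromosome 21 was the exception in position: its summit, with 43 and 59 fragments, lay 141593 bp from the nearest gene end without doxycycline and its peaks were 1987 and 2083 bp wide. The other 3 of the 10 leading genes were the chromosome 21 genes with identical windows LOC124904989, LOC124904990 and LOC124904992. A member on chromosome 19, with 34 and 40 fragments and ranks of 117 and 141, is not among the 10. It was assigned to LINC00662 without doxycycline and to the overlapping LINC02987 at day 5, so neither gene counted in both lists.

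**Figure D4:**
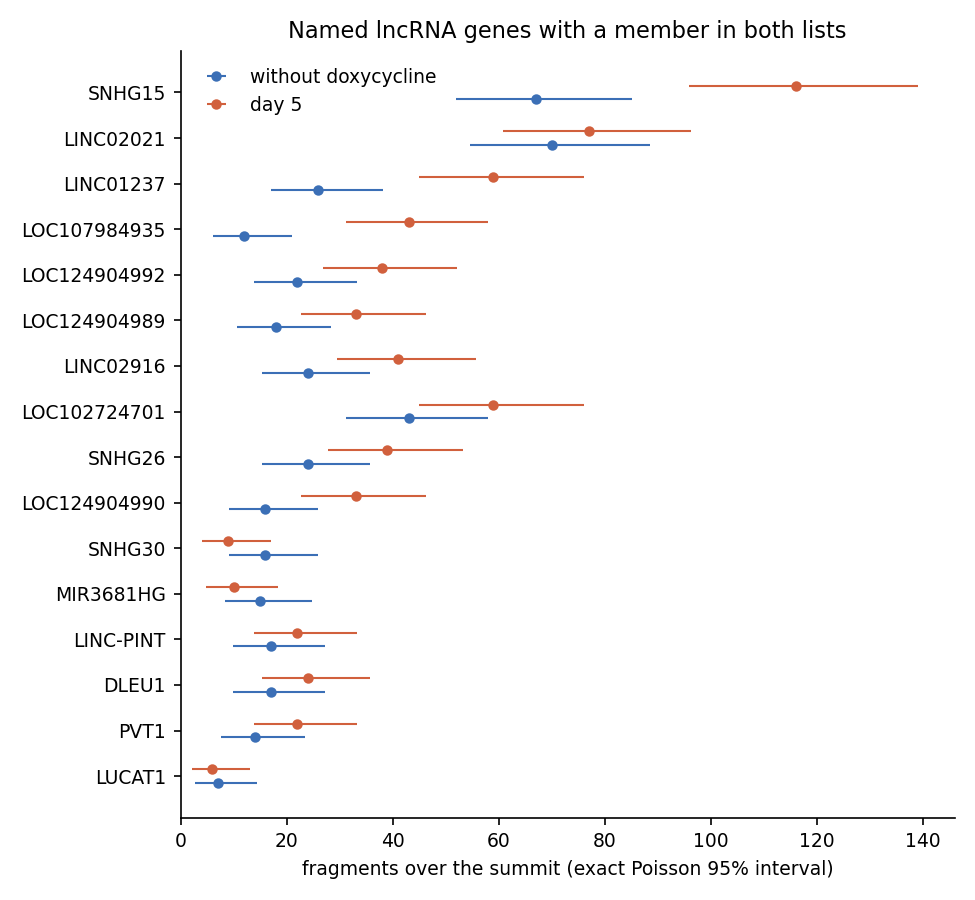
Fragments over the Myc summit (horizontal axis, with exact Poisson 95% intervals) without doxycycline and at day 5 for the named lncRNA genes with a member in both lists (vertical axis). SNHG15, LINC01237 and LOC107984935 have intervals apart, and SNHG30, MIR3681HG and LUCAT1 have fewer fragments at day 5 with intervals that overlap.

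Members listed in 1 library alone were weaker. At day 5 alone the leading genes were CZ1P-ASNS with 23 fragments, TM4SF18-AS1 with 22, LINC01775 with 20, LOC124905122 and LINC01144 with 18 each, LOC105371062 with 17, LACAT1 with 16 and LOC124906209 with 15. Of these, 5 had the summit within 1 kb of a gene end, and TM4SF18-AS1, LACAT1 and LOC124906209 did not. Without doxycycline alone they were LOC124901955 and LOC105379083 with 15 each, LOC102724467 with 14, LOC101927942 with 11, LOC105370680 with 10 and LOC124904244 with 9. A peak absent from a list lies below the authors' threshold there, and its fragments are not known.

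For counts of genes each member was given to 1 gene, also where lncRNA spans overlap. By gene, 355 of 17904 annotated lncRNA genes had a member in either list, 183 without doxycycline (1.02%) and 300 at day 5 (1.68%). Of these, 128 had one in both lists, 162 at day 5 alone and 42 without doxycycline alone, where no peak of the other list overlapped. For the remaining 10 and 13 the counterpart fell to another gene or kind of place. More than 1 member was held by 11 and 21 genes.

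Genes with a LOC number made up 67.3% of annotated lncRNA genes but 49.7% and 51.0% of the genes with a member. Of LOC genes 0.755% and 1.27% held a member, so the share over all lncRNA genes is weighted to this class. LINC genes held members in 48 of 2301 (2.09%, 1.54 to 2.76) and 71 of 2301 (3.09%, 2.42 to 3.88). Antisense genes, which mostly overlap or abut a coding gene, had them in 10 and 19 of 2043 (0.489% and 0.930%), and divergent transcripts in 3 and 5 of 590. SNHG genes had 4 of 29 in each list (13.8%, 3.89 to 31.7), with an interval above the 1.02% and 1.68% of all lncRNA genes. Genes outside every symbol class, called other-named here, held members in 24 and 42 of 701 (3.42%, 2.21 to 5.05, and 5.99%, 4.35 to 8.01). The rule removes genes beside coding genes, so shares of the antisense and divergent classes follow from it in part.

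Among 35 genes listed here as snoRNA hosts, 4 had a member without doxycycline (11.4%), 5 at day 5 (14.3%) and 3 in both. The list was set by symbol and includes CCDC26, which is also in the cancer-linked list and held no member. Of all lncRNA genes 1.02% and 1.68% had one. DANCR, an RNA first described as holding back differentiation, had 12 fragments at day 5 alone, 395 bp from its start, with SNORA26 beside the summit. SNHG12 also had 12 at day 5 alone. SNHG16 had 12 without doxycycline at its start, next to SNORD1C, and its day 5 counterpart, with 14 fragments, had its summit outside any gene span. Counting Myc peaks of any place in or within 1 kb of the gene, 14 and 21 of the 35 had one, beside 5.13% and 9.58% of all lncRNA genes, so most host genes with a Myc peak held no member.

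Of 87 microRNA host genes 3 had a member without doxycycline, 6 at day 5 and 1 in both, and 8 and 17 had a peak of any place. That is 3.45% and 6.90% with a member, beside 1.02% and 1.68% of all lncRNA genes. It is near the 3.42% and 5.99% of other-named lncRNA genes. A peak of any place was held by 5.13% and 9.58% of all lncRNA genes. MIR17HG, host of the miR-17 to miR-92a cluster and known as a Myc target gene, had 15 fragments at day 5 alone (8.40 to 24.7), 1540 bp into the gene. MIR1915HG had 14 at day 5, MIR137HG 12, MIR550A3HG 9 and MIR9-2HG 6, none listed without doxycycline. MIRLET7IHG had 8 without doxycycline, 12 bp from its start. Its counterpart, with 15 at day 5, was assigned to the overlapping LINC01465. The mature microRNAs of these 2 places are printed from RefSeq with the seed, bases 2 to 8, in capitals. In the MIR17HG cluster miR-17-5p and miR-20a-5p share a seed, as do miR-19a-3p and miR-19b-3p, while miR-18a-5p and miR-92a-3p have their own.
hsa-let-7i-5p: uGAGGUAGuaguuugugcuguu
hsa-miR-17-5p: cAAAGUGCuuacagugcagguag
hsa-miR-20a-5p: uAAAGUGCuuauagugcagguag
hsa-miR-18a-5p: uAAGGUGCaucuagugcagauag
hsa-miR-19a-3p: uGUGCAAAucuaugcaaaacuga
hsa-miR-19b-3p: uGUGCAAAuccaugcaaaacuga
hsa-miR-92a-3p: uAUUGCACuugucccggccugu

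Of 15 nuclear, imprinted or abundant lncRNAs, 1 had a member without doxycycline (6.67%) and 3 at day 5 (20.0%), beside the same 1.02% and 1.68%. Other-named lncRNA genes stood at 3.42% and 5.99%. LINC-PINT, an RNA induced by p53, had 17 fragments without doxycycline and 22 at day 5 at the same interior place, and NORAD and OIP5-AS1 were the others. A further interior LINC-PINT pair had 8 and 12 fragments. At day 5 a member summit with 24 fragments lay in promoter windows of both LINC-PINT and LINC00513. Since each member counted for 1 gene, CYTOR, with a day 5 member near a listed start, was not counted. Of 34 cancer- or MYC-linked lncRNAs, 4 and 6 had a member (11.8% and 17.6%), with 3 in both. DLEU1, named for a region deleted in leukemia, had 17 and 24 fragments at its start, and DLEU2, host of miR-15a and miR-16-1, had 8 at day 5. PVT1, the neighbour of MYC on chromosome 8, had 14 (7.65 to 23.5) and 22 (13.8 to 33.3), with the summit 485 bp from a gene end without doxycycline and the peak 51774 bp from MYC. CASC21, also on chromosome 8, had 13 at day 5 alone. LUCAT1, a stress-responsive RNA, had 7 and 6. The intervals of PVT1, DLEU1, LINC-PINT and LUCAT1 overlap between the libraries.

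Members sat beside genes for small RNAs more than the extent of such places would give. Such a gene lay within 1 kb of the summit of 17 members without doxycycline (8.76%, 5.19 to 13.7) and of 23 at day 5 (7.08%, 4.54 to 10.4). Only 0.288% of eligible bases lie so near one. For tRNA genes the numbers were 9 (4.64%) and 9 (2.77%), against 0.0284%. LOC102723575 on chromosome 11 holds TRV-TAC1-1, TRV-TAC2-1, TRL-TAA3-1 and TRR-TCT3-2 at its main summit and had 32 fragments in each library (21.9 to 45.2). LOC107984619 beside TRE-TTC2-1 had 12 and 20, and LINC02453 beside TRD-GTC1-1 and TRW-CCA4-1 had 15 and 21.

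Other kinds of small RNA gene were among them. LOC105378179 at RN7SL2, a gene for the RNA of the signal recognition particle, had 16 and 24. LOC124902297 at RNU6ATAC, a minor spliceosome RNA, had 11 and 28. LOC105378198 at the vault RNA gene VTRNA1-2 had 8 and 7. LOC124903859 at the U1 gene RNU1-4 had 39 at day 5, where its counterpart was no member. Over all members with a small RNA gene a counterpart was present for 13 of 17 without doxycycline (76.5%, 50.1 to 93.2) and 12 of 23 at day 5 (52.2%, 30.6 to 73.2), near the 82.2% and 42.4% of all peaks. tRNA and U1 genes occur in many near-identical copies, so reads there may be shared, and signal at the lncRNA gene cannot be told apart from signal at the small RNA gene.

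At member starts the promoter windows were richer in CpG than those of other lncRNA genes. Starts with a member within 1 kb, 74 without doxycycline and 132 at day 5, had medians of 19 and 18 CpG in 300 bases and a GC content of 61.7% and 60.5%. The 12674 lncRNA starts without a member had medians of 5 CpG and 50.0% GC, and coding starts with a gene-end peak 26 and 27 CpG. The starts without a member were not cleared of starts near other Myc peaks, such as those at coding gene ends. Of lncRNA genes, 919 and 1715 had a Myc peak of any place, and 183 and 300 a member. No chromosome 8 windows were used.

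The E-box CACGTG, which reads the same on both strands, was in 8 of 74 member windows without doxycycline (10.8%, 4.78 to 20.2) and 11 of 132 at day 5 (8.33%, 4.23 to 14.4). It was in 5.37% of windows of lncRNA starts without a member and in 7.27% of all 34960 windows. The intervals of both libraries include each of these shares. The member windows come from 65 and 115 genes, and some overlap or are identical. The intervals treat every window as separate. Coding starts with a gene-end peak held it in 15.4% (14.1 to 16.8) and 13.4% (12.5 to 14.3), above the member shares by point estimate and inside the members' intervals. By CpG number, the member starts of either list had it in 9.30%, 7.81% and 8.33% of windows with under 10, 10 to 24 and 25 or more CpG. lncRNA starts without a member, which may include starts near other Myc peaks, had it in 3.46%, 9.31% and 9.35%. Among starts of like CpG number the members thus stood above the others in the CpG-poor class alone, where 4 of 43 held it (2.59 to 22.1, an interval that includes 3.46%). When CACATG and its reverse complement CATGTG also counted, the shares were 20.3% and 19.7%, against 19.5% of lncRNA starts without a member. A further form, CGCGTG or its reverse complement CACGCG, was in 18.9% (10.7 to 29.7) and 16.7% (10.7 to 24.1) of member windows. Of lncRNA starts without a member 6.48% had it, below both intervals, and of all windows 11.4%, inside both. Coding starts with a gene-end peak had it in 22.9% and 22.5%. This form holds CpG itself, and it was not compared within classes of CpG number.

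Few summits lay in a promoter window, printed or not, since most were downstream of it. The rule sets this in part, because a member summit must lie inside a gene span. Where a start is the end of the span, only the 50 bases after it can hold a summit of that gene. Of the 18 windows at day 5 that held a member summit, 5 held CACGTG, those of LINC-PINT and LINC00513 around the same summit, so these are 17 summits and 4 with the motif. It lay 97.5 to 240.5 bp from the summit. Of the 8 without doxycycline 1 did, that of LINC00863, 133.5 bp away. The sequence under the other summits was not read. Of 155 member starts, 12 shared at least 50% of their 30-base words with the window of another gene. These include the 4 chromosome 21 copies, FAM88B, FAM88D and FAM88E on chromosome 9, and LINC00863, which shares 56.5% with the coding gene NUTM2E, so its E-box window is partly duplicated.

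By chromosome the members were uneven. They stood at 0.540 per eligible Mb without doxycycline and 0.904 at day 5 over the genome. Chromosome 4 had 1 and 1 in 27.8 Mb, 0.0359 per Mb in each library, with LINC02615 as the former and DANCR as the latter. Chromosome 17 had 1.73 and 2.21, and chromosome 21 had 1.91 and 2.23. Of the chromosome 21 members, 5 in each library lay in the first 10 Mb, which hold 0.907 eligible Mb, giving 5.51 per Mb. They are LOC102724701 and the 4 genes with identical windows. The rest of the chromosome had 1.302 and 1.67 per Mb, still above the genome. Copy number of these chromosomes in the cells was not measured here.

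**Figure D5:**
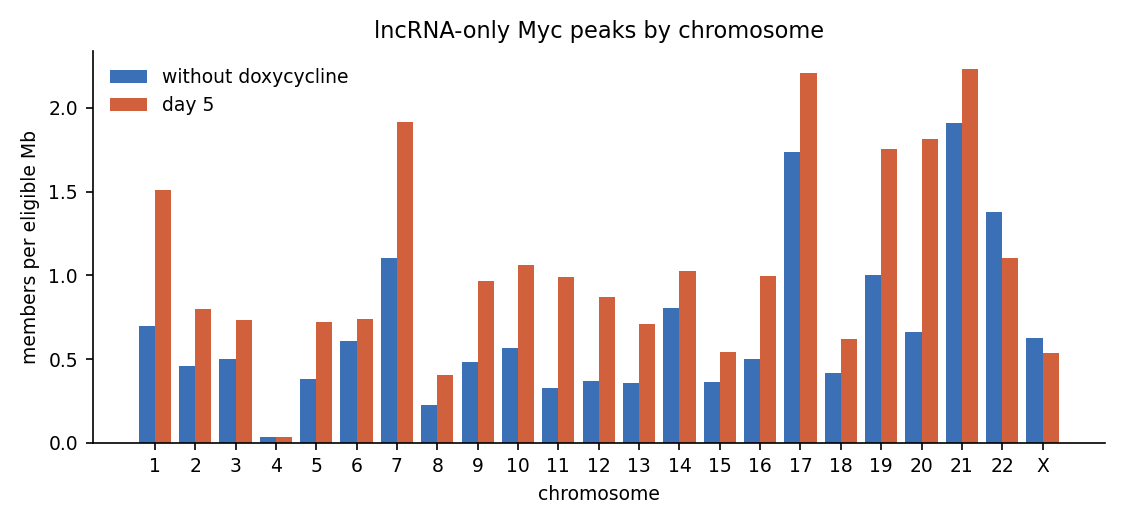
Members per eligible Mb (vertical axis) by chromosome (horizontal axis) without doxycycline and at day 5. Bars are lowest at chromosome 4, 0.0359 in each library, and highest at chromosome 21, 1.91 and 2.23.

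Members gathered in 2 places, both at day 5 alone, where 3 members of 1 list lay within 50 kb. On chromosome 10, MANCR, a mitosis-associated lncRNA, had peaks with 19 and 10 fragments, and LOC105376373 one with 12, in 15.9 kb. The strongest of these had a counterpart without doxycycline. On chromosome 20, BCAS1-AS1 had 11, 13 and 12 fragments in 23.4 kb, and none of its 3 peaks had a counterpart.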

How the data were processed

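Myc CUT&Tag peak lists of 2 libraries were used, grouped by their titles. The submitters' processing notes name MACS2, Bowtie2, deepTools and Trim Galore, with build hg38. For versions, settings and any IgG control in peak calling, nothing was given in the sources used here. The lists give, for each library apart, the deposited score (the whole part of 10 times −log10 q), the deposited fold ratio over local background, the deposited −log10 p-value and −log10 q-value, and the summit. Light fixation was used for non-histone targets, per the labels' protocols.

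Whole fragments over each summit were recovered from fold and p, taking fold as (fragments + 1)/(background + 1) and p as a Poisson tail, within 0.001 in −log10 p, for all 3468 and 6718 peaks. Recovery, placement and overlap were tested on simulated data. PCR duplicates cannot be seen. Other deposited values served only to rank and class peaks within a list, while the recovered fragments were also set side by side between the libraries, whose depths are not known.

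Gene spans came from RefSeq GRCh38.p14 with 17904 lncRNA and 19817 coding genes. Another 679 gene rows with scaffold coordinates were left out. Eligible bases lie inside an lncRNA span, outside coding spans and over 1 kb from coding gene ends. A member went to the lncRNA gene whose end was nearest its summit. Named genes were the 10 with the highest day 5 rank among those with a member in both lists, 8 at day 5 alone and 6 without doxycycline alone, up to 6 of each of 4 gene lists, the 2 nearest the 1 kb limit on each side, and places with 3 members within 50 kb. The members and lists were chosen with earlier results of these data known. Of the lists, 5 of 20 nuclear and abundant RNAs and 2 of 36 cancer-linked ones had no lncRNA entry. Alternatives changed list length, overlap, windows, placement and motif. Python 3.11.15 with pandas 2.3.3 and scipy 1.17.1 was used.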

Additional observations from a re-analysis of the deposited data

How the results depend on the processing

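Of 122 alternative values for 13 results, 97 stayed within the limit set for each, 24 moved and 1 reversed. The limit was 1.5 times for counts and the 95% interval for shares. For medians it was the Poisson interval of a single count of 11 (5.49 to 19.7). That is wide for a median over many peaks, so medians had little room to be called moved. Within that limit the median of 11 fragments still rose to 15 and 17 in the upper 50% of each list and to 16 at day 5 with equal numbers. The reversal was the ratio of members, 0.768 with the day 5 list cut to the length of the other. There day 5 had 149 members in 146 genes, 62.4% with a counterpart and 55.7% within 1 kb of an end, and 47.9% of members without doxycycline had a counterpart, against 62.2% of all peaks. In the upper 50% of each list members numbered 88 and 142 in 86 and 140 genes, with 55.6% of the latter near an end. Without LOC genes they numbered 100 and 168 in 94 and 151 genes. Reciprocal overlap of 50% gave counterpart shares of 59.3% and 36.0%, against 67.1% and 34.6% of all peaks. Placing peaks by any overlap gave 53.4% and 55.3% near an end, windows of 500 bp 35.6% and 36.3%, and windows of 2500 bp 57.2% and 59.7%. The wider motif gave 20.3% and 19.7%. By construction fewer peaks or genes lower the counts, and narrower or wider windows around lncRNA ends lower or raise the near-end share. Of eligible bases 3.16% lay within 500 bp and 14.2% within 2500 bp. Reciprocal overlap can only lower counterpart shares, and a cut day 5 list can only lower that of the list without doxycycline. Added motif forms can only raise the motif share. The cause of the other moves was not tested. The interval of the counterpart share without doxycycline lay below that of all peaks in 12 of 13 alternatives, and without LOC genes it did not (74.0%, 64.3 to 82.3). Leaving out the members in the first 10 Mb of chromosome 21 or beside small RNA genes, and reading all gene rows, were chosen after seeing the data.

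No paired analysis was possible because each condition has 1 library without a replicate number and no result comes from a test. Leaving out a replicate was not possible either. Depth is not in the lists, a typical summit rests on 11 fragments, and absence from a list is a statement about the authors' threshold.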
